A study of Mus musculus with 3 samples.

Results

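Universal fibroblast progenitors were studied here as those fibroblasts of the synovium and fat pad of the mouse knee that carried transcripts of Pi16, of Dpp4 or of both. The members were chosen by measured values: a cell needed 500 or more genes and no more than 10% of its UMIs (unique molecular identifiers, each marking a captured transcript) from mitochondrial genes, and Col1a2, Col3a1 and Dcn together had to make up at least 0.2% of its UMIs. It had to have no UMI of Ptprc or Cdh5 and at most 1 of Higd1b and Myh11, and these criteria made it a gated fibroblast. Of these, cells with at least 4 UMIs of Pi16 and Dpp4 together and fewer than 4 of the lining genes Clic5, Tspan15, Htra4 and Itga6 together were the progenitors. There were 1521 of them among 15917 gated fibroblasts and 30197 cells in all, 594 in the control library, 168 at 1 week and 759 at 2 months.

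The libraries were 10x Genomics 3' libraries of live-sorted cells, 1 per group, and each pooled the tissue of 5 to 10 mice of genotype wt after trypsin at 0.25% and then type I collagenase at 300 U/mL. The control mice were 2 months old. The operated mice had destabilisation of the medial meniscus (DMM, a surgical model of osteoarthritis) at 2 months of age, and the tissue was taken 1 week or 2 months later, so the latter mice were also older than the controls. With 1 library per group no test between conditions was possible: all ratios between libraries have 95% intervals that cover counting error only and not the spread between mice, and age, library and operation cannot be told apart. Library totals were 96782789 to 179561680 UMIs, and the cell filters passed 8099 control cells, 12316 cells at 1 week and 9782 at 2 months. The labels name neither the sex of the mice nor a sham operation.

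Universal fibroblast progenitors are a fibroblast state found in the adventitia of vessels and in the fascia and outer layer of many tissues, and they are known for the expression of Pi16, Dpp4, Cd34 and stem cell antigen genes. Pi16 encodes a secreted peptidase inhibitor and Dpp4 a cell-surface dipeptidase that clips chemokines and other peptides. In many organs such cells are thought to give rise to the specialised fibroblasts of the tissue, and in adipose tissue to adipocytes. In the synovium they lie in the sublining, below the Prg4-producing cells of the lining that make lubricin.

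Because the definition turned on these 2 genes, the promoters from RefSeq on build GRCm38.p6 are shown for both, 250 bases before to 50 after the start of transcription, in lower case with the motifs found in capitals. The motifs searched on both strands were the TATA box TATAAA, the GC box GGGCGG, the E-box CACGTG, the CACCC box, the AP-1 site TGACTCA and the CCAAT box. The Pi16 promoter, chr17:29318632-29318931 on the plus strand, held 1 CACCC box (as GGGTG on the strand printed) and 1 CCAAT box. The Dpp4 promoter, chr2:62412182-62412481 on the minus strand, held 1 TATA box string, near the first bases printed, and 1 CACCC box. The search matched the strings alone and did not use their distance from the start of transcription.
Pi16: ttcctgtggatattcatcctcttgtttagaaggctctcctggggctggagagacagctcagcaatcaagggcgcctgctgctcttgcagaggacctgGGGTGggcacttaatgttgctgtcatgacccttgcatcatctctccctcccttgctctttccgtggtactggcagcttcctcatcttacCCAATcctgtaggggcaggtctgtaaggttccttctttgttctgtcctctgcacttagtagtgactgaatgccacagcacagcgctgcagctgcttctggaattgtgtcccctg
Dpp4: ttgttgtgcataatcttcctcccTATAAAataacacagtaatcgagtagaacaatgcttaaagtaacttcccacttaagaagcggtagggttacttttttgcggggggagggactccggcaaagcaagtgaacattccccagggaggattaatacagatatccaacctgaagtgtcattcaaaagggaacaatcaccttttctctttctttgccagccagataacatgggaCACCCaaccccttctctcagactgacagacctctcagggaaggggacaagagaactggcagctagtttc
The CACCC box was the only motif of the 6 found in both, and the promoters of the markers Efhd1 and Cd34 also held it; 56.7% of 27025 promoters of this length held it, against 37.9% for the CCAAT box and 14.2% for the TATA box. Both promoters had few CpG sites, 3 for Pi16 and 4 for Dpp4, with a GC content of 53.3% and 45.3%. The promoters of Cd34 and Efhd1 held 7 and 24 CpG sites. In the GENCODE annotation of GRCm38 the Pi16 gene lay on chromosome 17 (29317680 to 29330593) and the Dpp4 gene on chromosome 2 (62330073 to 62412231), and the 2 annotations place the start of Pi16 differently.

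Progenitors made up 14.1% (13 to 15.2, Clopper-Pearson) of gated fibroblasts in the control library, 2.84% (2.43 to 3.30) at 1 week and 13.1% (12.3 to 14.0) at 2 months. The share at 1 week was thus 4.95-fold lower than in the control (4.17 to 5.91), and the 2-month share was 0.934 times that of the control (0.838 to 1.04), an interval that includes 1. That ratio was 1.02 with a threshold of 6 UMIs, 1.27 for Pi16 alone and 0.565 for Dpp4 alone. Of all cells that passed the filters, progenitors were 7.33%, 1.36% and 7.76%. The lower share at 1 week stood beside more gated fibroblasts in that library, 5915 against 4223 in the control and 5779 at 2 months, and the number of cells per joint was not measured. The lining-gated fibroblasts, defined by the 4 lining genes, were also a smaller share at 1 week (25.1%, 8.22% and 33.7%), 0.327 times the control.

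**Figure D1:**
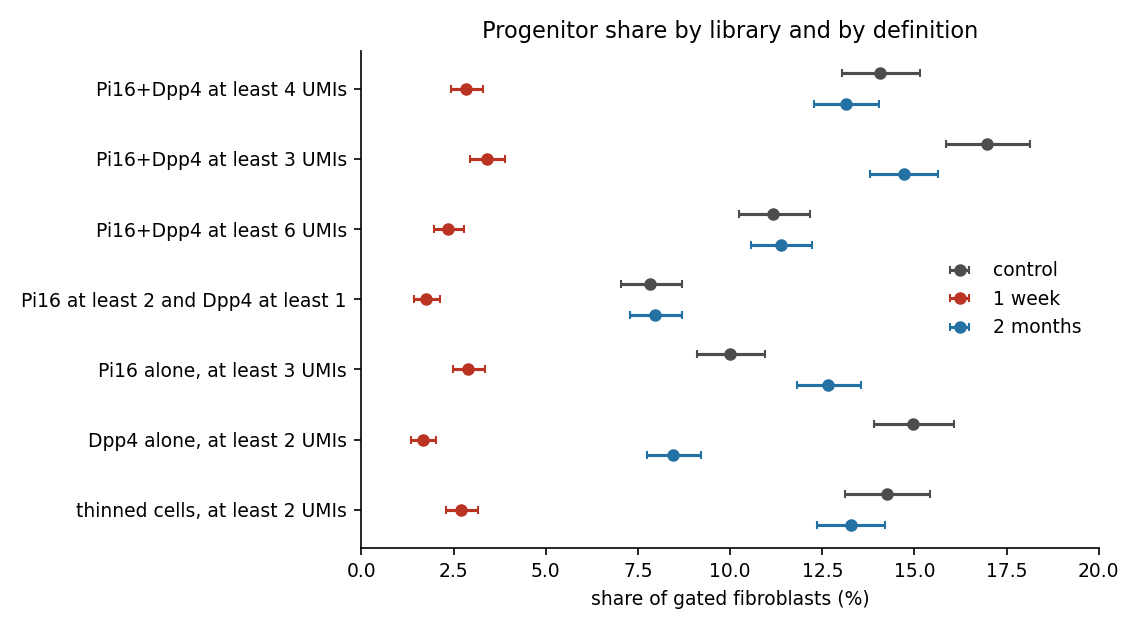
Share of gated fibroblasts called progenitors (horizontal axis, %) in the control, 1-week and 2-month libraries under 7 definitions, with Clopper-Pearson intervals for counting error. The 1-week library is lowest in each of the 7, while the order of the control and the 2-month library depends on the definition.

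By number, the UMI threshold cut through the fewest cells at 1 week, where progenitors were also fewest. Of gated fibroblasts under the lining threshold, 61.7% of control cells, 89.1% of those at 1 week and 61.7% of those at 2 months had no UMI of Pi16 or Dpp4. Cells just outside the threshold, with 3 UMIs, numbered 123, 33 and 91, and those just inside, with 4 UMIs, numbered 70, 22 and 58. Far inside the threshold, with 12 or more UMIs, were 329, 104 and 506 cells. Progenitors numbered 594, 168 and 759. Relative to these, cells with 3 or 4 UMIs were about as common at 1 week as in the control, and least common at 2 months. The level of Scara5, which the rule did not use, was 274, 111 and 353 CPM (UMIs of the gene scaled to 1000000 UMIs of the summed cells) in cells with 3 UMIs and 214, 172 and 366 CPM in those with 4. Just inside the threshold Scara5 was thus lower than just outside it in the control, near equal at 2 months and higher at 1 week. Depth of the progenitors was alike in the 3 libraries, with medians of 12242, 13584.5 and 12800 UMIs per cell, and their median mitochondrial share was 1.40%, 2.93% and 3.08%. After thinning every cell to 5000 UMIs the shares were 14.2%, 2.70% and 13.3%. As a measure of free RNA, at least 4 UMIs of Pi16 and Dpp4 were seen in 0.207%, 0.356% and 2.34% of immune cells (median depths 9351, 8909.5 and 9064.5 UMIs), against 14.8%, 2.94% and 14.1% of gated fibroblasts. No cell barcode of a progenitor was shared between libraries, and doublet calls marked 6, 1 and 3 progenitors.

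The 2 gating genes were not carried in the same proportions in the 3 libraries. Progenitors with UMIs of both made up 58.2% (54.2 to 62.2), 59.5% (51.7 to 67.0) and 61.9% (58.4 to 65.4) of the progenitors. Those with Dpp4 alone were 27.3% of control progenitors (162 cells), 3.57% of 1-week ones (6 cells) and 5.01% of 2-month ones (38 cells). Those with Pi16 alone were 14.5%, 36.9% and 33.1%. Dpp4-only cells were thus the scarce kind in both libraries after the operation, and Pi16-only cells the scarce kind in the control. This split uses the genes of the rule and 1 library per condition, so it is a description. The rule used the sum of the 2 genes, so their levels are a description too: Pi16 stood at 2235, 1867 and 2446 CPM and Dpp4 at 286, 97.8 and 172 CPM in the control, 1-week and 2-month progenitors.

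**Figure D2:**
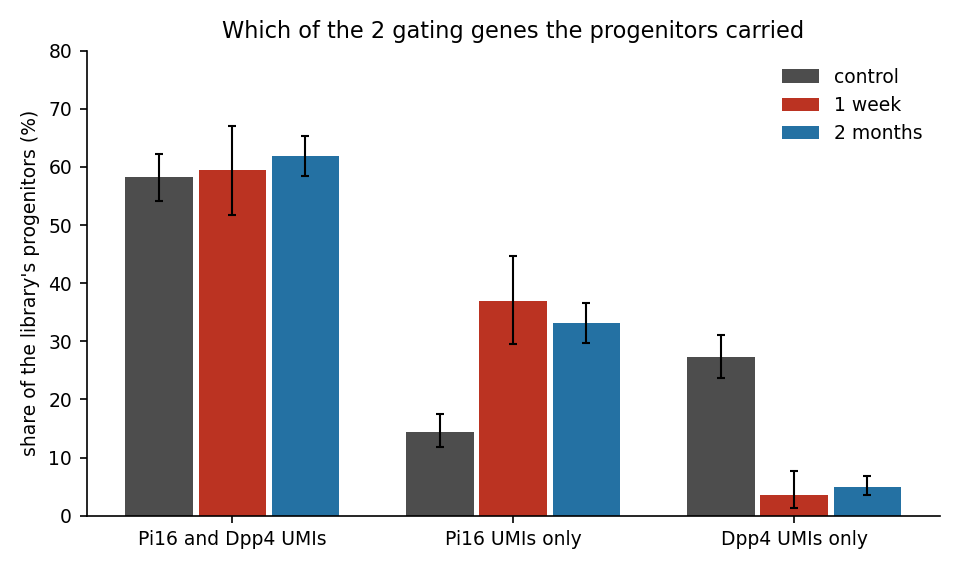
Share of each library's progenitors (vertical axis, %) with UMIs of both Pi16 and Dpp4, of Pi16 only, or of Dpp4 only. Bars are shares and whiskers are Clopper-Pearson intervals for counting error. Dpp4-only cells were 27.3% of control progenitors and 3.57% and 5.01% of those at 1 week and 2 months.

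The 3 kinds differed in other transcripts too, in the control library and at 2 months, where each kind had at least 38 cells. Sema3e, a secreted guidance cue, was highest in Dpp4-only cells, at 362 CPM in the control and 322 CPM at 2 months, against 33.3 and 26.1 CPM in Pi16-only cells. Tppp3, a tubulin-associated protein that marks progenitors of tendon sheath, was at 1695 and 1293 CPM in Dpp4-only cells and 398 and 488 CPM in Pi16-only cells. Ccn3, a matricellular protein, followed the same order with 955 and 820 CPM against 174 and 164 CPM. Levels of these 3 genes in cells with both transcripts lay between the others in both libraries. Complement C3 ran the other way, at 268 and 371 CPM in Dpp4-only cells and 2037 and 3021 CPM in Pi16-only cells. So did the chemokine gene Cxcl14, with 19.5 and 12 CPM in Dpp4-only cells and 350 and 1706 CPM in Pi16-only cells. These genes were picked after their levels had been seen, and the values are a description.

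Levels of the 3 markers that the rule did not use were compared between the populations. The members were chosen with earlier results of these data known, so the direction of these markers is no independent evidence of identity. Cd34, a sialomucin of the cell surface, stood at 1175, 778 and 1099 CPM in the control, 1-week and 2-month progenitors, at 532, 96.6 and 334 CPM in the other gated fibroblasts and at 51.4, 89.0 and 51.4 CPM in lining-gated cells. In all 3 libraries the progenitors were highest, and the log2 difference from the other fibroblasts was 1.92 (edgeR quasi-likelihood test with Benjamini-Hochberg adjustment, adjusted p = 0.0288, n = 3 libraries). Efhd1, a mitochondrial calcium-binding protein, stood at 183, 60.1 and 161 CPM against 32.0, 2.09 and 13.8 CPM in the other fibroblasts (log2 difference 3.52, edgeR adjusted p = 0.00899), a call that was lost without the 2-month library. Scara5, a scavenger receptor that takes up ferritin, stood at 357, 300 and 541 CPM in progenitors and 127, 14.0 and 147 CPM in the others. Its log2 difference of 2.5 was in the same direction in 3 of 3 libraries but missed the threshold (edgeR adjusted p = 0.0579), while against the lining it was 4.09 (edgeR adjusted p = 8.73e-05). After thinning to 5000 UMIs, 73.5%, 62.1% and 82.5% of progenitors had a Scara5 UMI, against 37.2%, 5.86% and 40.2% of the other fibroblasts. The pair of populations came from the same 3 libraries, which were 3 conditions. A call is thus an average difference over them and need not hold in each.

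Beyond the markers, progenitors were compared with the 10805 gated fibroblasts that met neither threshold, library by library. With the 13 gate genes left out, 542 of 13832 genes were higher in progenitors (3.92%) and 539 lower (3.9%) in the edgeR test. Without the 2-month library 65 were higher and 53 lower, and without the library as a block 0 were called in either direction (553 and 539 at an unadjusted p under 0.05). Of 34 tested genes from a list of universal progenitor genes, 26 were higher and 0 lower, with a median log2 difference of 1.71 against -0.01 over all genes. That list was chosen with results of these data known, so its direction is no independent evidence. Wnt2, a Wnt ligand, stood at 34.9, 15.6 and 20.8 CPM in progenitors against 2.81, 0.640 and 2.51 CPM (log2 difference 3.61, edgeR adjusted p = 0.0034). Cd55, which restrains complement at the cell surface, stood at 557, 336 and 549 CPM against 108, 30.1 and 61.8 CPM (2.97, edgeR adjusted p = 0.00306). The list of lining fibroblast genes holds Cd55 too, so it is not particular to progenitors. Fbn1, the microfibril protein fibrillin-1, stood at 1429, 1995 and 1569 CPM against 411, 648 and 388 CPM (1.78, edgeR adjusted p = 0.00199). The 8 members that missed the threshold included Ly6a, the stem cell antigen Sca-1 (3156, 3073 and 2721 CPM against 2265, 824 and 1474 CPM, edgeR adjusted p = 0.0708), and Dpt and Col14a1, which differed little (log2 0.21 and 0.19).

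**Figure D3:**
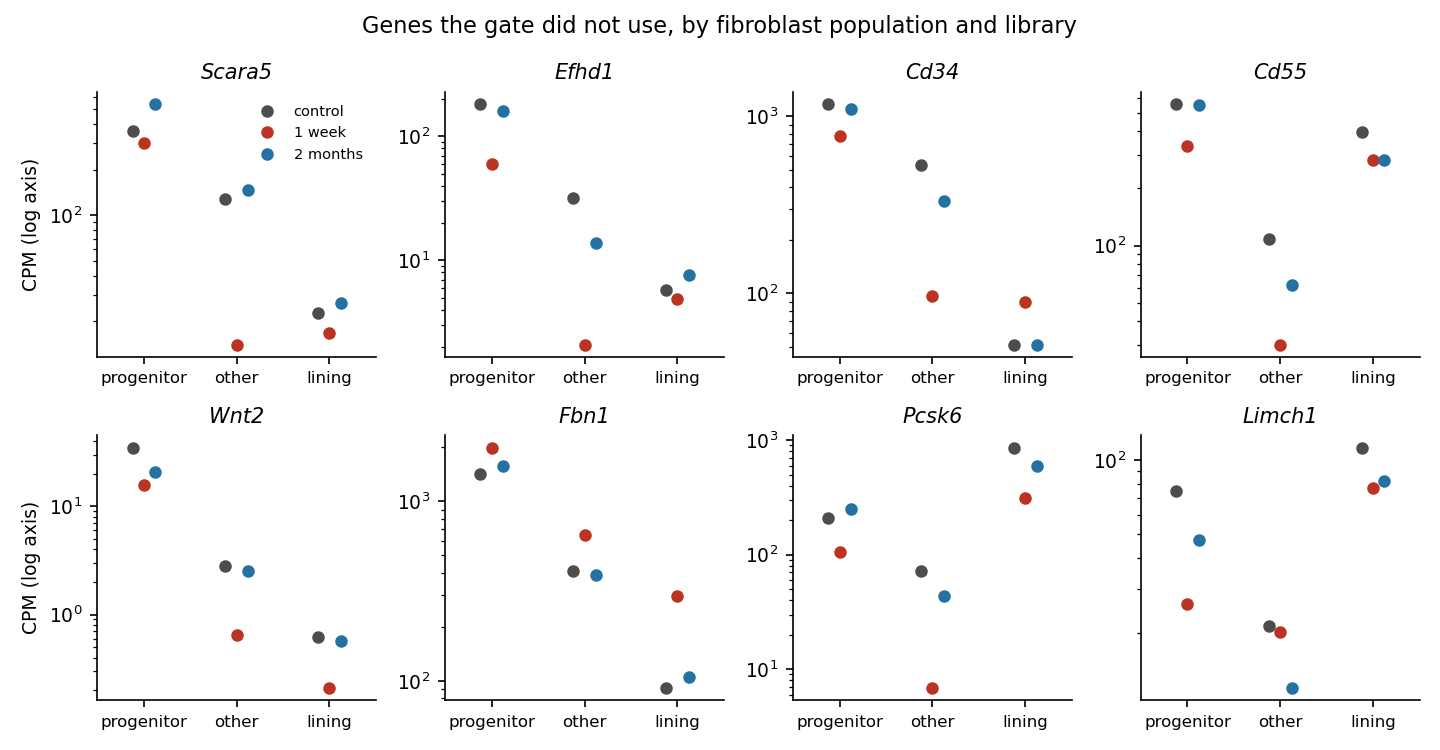
Levels of 8 genes that the gate did not use (vertical axes, CPM on a log scale) in progenitors, other gated fibroblasts and lining-gated fibroblasts. Each point is the summed UMIs of 1 library, coloured by library. The progenitors are highest for Scara5, Efhd1, Cd34, Wnt2 and Fbn1 in each library, and the lining is highest for Pcsk6 and Limch1.

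The named genes with the largest differences upward included a receptor and a Wnt ligand. Tek, the angiopoietin receptor Tie2, stood at 54.5, 33.3 and 58.8 CPM in progenitors and 4.87, 1.26 and 3.68 CPM in the others (log2 difference 3.98, edgeR adjusted p = 0.00156). Endothelial markers were low in the same cells, with a summed level of 20.5, 14.4 and 10.2 CPM over 8 genes, of which Cdh5 was at 0 by the gate. The Wnt ligand Wnt10b stood at 52.9, 14.0 and 42.0 CPM against 5.01, 0.919 and 4.61 CPM (3.39, edgeR adjusted p = 0.00111), and Dact2, a Wnt pathway regulator, differed by 3.76. Of 34 Wnt pathway genes tested, 5 were higher (Wnt2, Wnt9a, Wnt10b, Nkd1 and Apcdd1) and 2 lower (Wnt6 and Dkk3), where 3.92% of all genes were higher and 3.9% lower. The median log2 difference of this list was 0.06, near the -0.01 over all genes. Also higher were Rorb, a nuclear receptor (87.0, 63.7 and 62.1 CPM against 11.3, 5.98 and 7.59 CPM), Car8, Smpd3, Stmn4, Pcsk6, Ston2, Tmeff2, Olfml2a and Lgi2, with log2 differences of 2.47 to 3.52, of which Smpd3, Pcsk6 and Tmeff2 missed the threshold without the 2-month library. Efemp1, the elastic fibre protein fibulin-3, stood at 301, 120 and 262 CPM against 79.6, 10.7 and 56.7 CPM (2.48, edgeR adjusted p = 0.00974), and this call too was lost without that library.

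Most of the tested cartilage matrix genes were lower in progenitors. Of 18 tested cartilage matrix genes 14 were lower and 0 higher, where 3.9% of all genes were lower, with a median log2 difference of -2.70. Summed chondrocyte markers stood at 2.26, 58.1 and 10.7 CPM in progenitors and at 4.58, 519 and 128 CPM in the other fibroblasts, and their part in this count was not tested. Ibsp, the mineralised-tissue protein bone sialoprotein, stood at 0.133, 2.40 and 6.79 CPM in progenitors against 10.0, 53.9 and 201 CPM in the other fibroblasts (log2 difference -4.92, edgeR adjusted p = 0.000764). Scx, the tendon transcription factor scleraxis, stood at 1.07, 26.4 and 5.86 CPM against 8.10, 138 and 39.4 CPM (-2.64, edgeR adjusted p = 0.00135). Fmod, a collagen-binding proteoglycan, was at 0.400, 52.9 and 28.1 CPM against 93.0, 390 and 244 CPM (-3.73, edgeR adjusted p = 0.0251). Others were Chad, Cilp2, Spp1, Crispld1, Tnc, Mmp13 and Tnn, between -2.51 and -3.98, and without the 2-month library Fmod, Spp1, Crispld1 and Tnn missed the threshold. Of 27 collagen and collagen-processing genes 9 were lower, among them Col1a1, Col12a1 and Col6a3, and 3 were higher (Loxl1, Pcolce2 and Bmp1). Of 24 elastic fibre and adventitial genes 8 were higher, such as Fbln2, Mfap5 and Nid1, and 2 were lower (Fbn2 and Emilin1). Of 28 cytokine and chemokine genes 5 were higher and 1 lower: Il33, an alarmin, was at 70.7, 66.9 and 153 CPM against 19.3, 16 and 60.3 CPM (1.71, edgeR adjusted p = 0.0045), and Ccl2, Tslp, Ackr3 and Il1r2 were the other 4, while Saa3 was lower. Of 24 proliferation genes, 0 were higher and 5 lower; of 20 contractile and myofibroblast genes, 0 were higher and 4 lower.

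**Figure D4:**
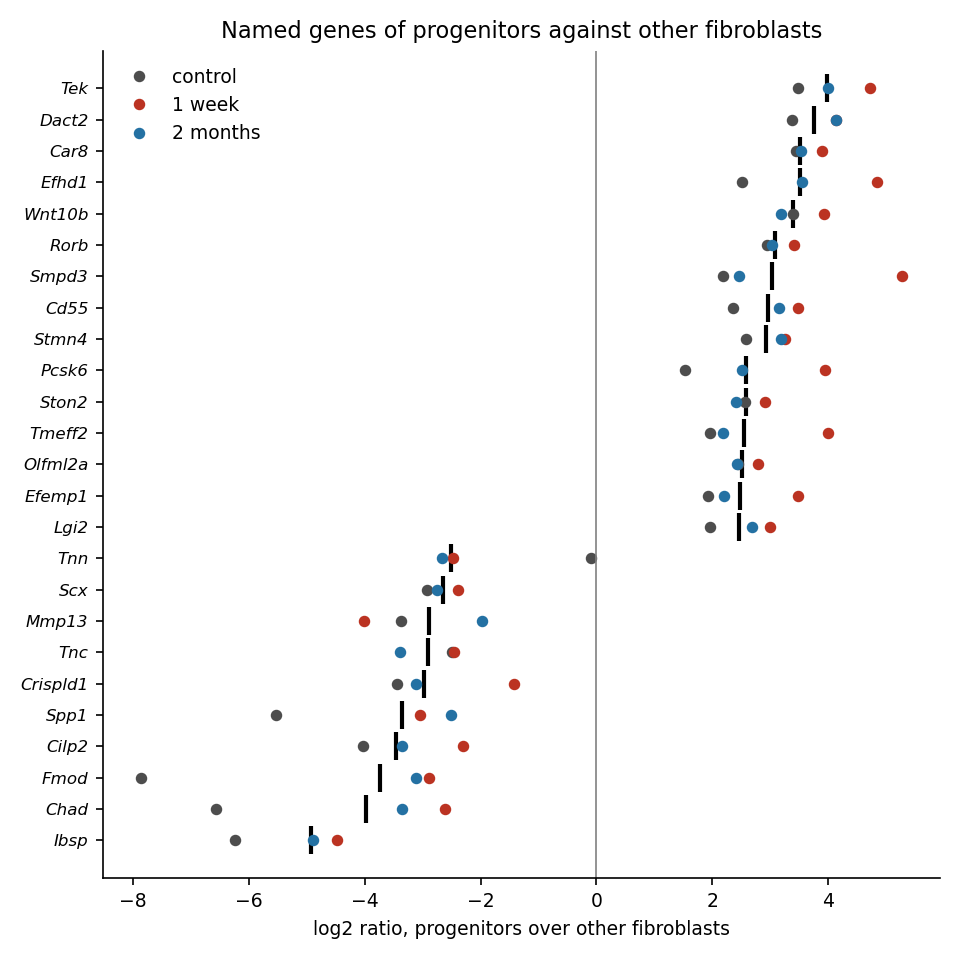
Log2 ratio of progenitors over other gated fibroblasts (horizontal axis) for the 15 highest and 10 lowest genes named by rule. Points are the 3 libraries and vertical ticks are the edgeR log2 difference. All 3 points lie on the same side of 0 for each gene, which the naming rule required, and Tek and Ibsp have the largest differences.

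Against the lining more genes differed, with 1742 of 12679 genes higher in progenitors (13.7%) and 1694 lower (13.4%) against the 3497 lining-gated cells. Without the 2-month library these counts were 730 and 542. Lgi2, a secreted leucine-rich protein, had the largest rise (98, 28.0 and 95.6 CPM against 1.71, 0.418 and 1.11 CPM, log2 difference 6.05, edgeR adjusted p = 8.73e-05). Myoc, a secreted protein of sublining fibroblasts, stood at 1414, 235 and 701 CPM against 53.0, 0.209 and 12.7 CPM (5.72, edgeR adjusted p = 0.00265). C7, Gpc3, Colec10, Cxcl13, Dkk2 and Il33 followed, with log2 differences of 4.92 to 5.62. Complement genes were higher in 10 of 14 tested, with 0 lower and a median of 1.79, and C3 stood at 1236, 675 and 2521 CPM against 53.1, 17.4 and 101 CPM (4.72, edgeR adjusted p = 0.000171). Against the other fibroblasts 1 of 16 complement genes was higher (Cd55) and 2 were lower (Cfd and Cd59a). Of 31 Wnt pathway genes 19 were higher and 5 lower, and of 24 elastic fibre genes 14 and 2. In the other direction stood Col22a1, a collagen of tissue junctions (3.06, 8.01 and 8.0 CPM against 278, 392 and 517 CPM, -6.14, edgeR adjusted p = 8.73e-05), with Gchfr, Fut9, Rab37, Bglap2, Rarres1, Tmem196 and Megf10 between -5.77 and -6.89. Lubricin (Prg4) stood at 1880, 773 and 1263 CPM in progenitors and at 114448, 68468 and 85547 CPM in the lining. Universal progenitor genes were not all higher: of 34 tested, 23 were higher and 3 lower, namely Pcsk6 (-1.70, edgeR adjusted p = 0.00152), Limch1 (-1.01, edgeR adjusted p = 0.00989) and Creb5 (-0.60, edgeR adjusted p = 0.00773). Pcsk6, a proprotein convertase, was thus highest in the lining (861, 315 and 597 CPM), next in progenitors (208, 106 and 251 CPM) and lowest in the others (72.0, 6.84 and 43.9 CPM).

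Progenitors also met gates of other fibroblast programmes. At least 4 UMIs of Cthrc1 and Postn together, both genes of activated fibroblasts, were present in 22.1% of control progenitors, 92.9% at 1 week and 43.0% at 2 months, against 14.0%, 93.7% and 36.7% of the others. The activation genes were thus carried by nearly as large a share of progenitors as of the other fibroblasts at 1 week. Myoc and Penk were carried by 49.2%, 27.4% and 41.8% of progenitors against 45.7%, 5.75% and 22.7%. The chondrogenic pair Acan and Col11a1 was in 0%, 10.7% and 1.05% of progenitors against 0.552%, 51.5% and 6.17% of the others. The share with 4 UMIs of Acta2, smooth muscle actin, was 0%, 2.98% and 0.659% against 1.58%, 17.5% and 3.02%. Proliferation genes Mki67 and Top2a reached 4 UMIs in 0%, 2.98% and 0.264% of progenitors and 0.473%, 5.75% and 0.465% of the others. For 0 of 594 cells the upper limit of the share is 0.619%. Adipocyte markers were near 0, at 5.20, 1.2 and 2.05 CPM summed over 7 genes.

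Within the progenitors, the 1-week library was compared with the control over 3236 genes that had 100 or more UMIs in both sums together and reached 50 CPM in 1 of them. Of these 190 were at least 2-fold higher (5.87%) and 180 at least 2-fold lower (5.56%). The named genes that were higher were mainly genes of the matrix and of activated fibroblasts. Cthrc1, a secreted glycoprotein of activated fibroblasts, stood at 8.39 CPM in the control and 1610 CPM at 1 week, 192-fold higher (150 to 250), and at 30.0 and 1530 CPM in the other fibroblasts. Lox, which crosslinks collagen and elastin, stood at 15.7 and 403 CPM (25.6-fold, 21.1 to 31.3). Sfrp2, a secreted Wnt modulator, stood at 25.6 and 605 CPM (23.7-fold, 20.3 to 27.6), while the ratio in the other fibroblasts was 1.83. Eln, which encodes elastin, stood at 27.6 and 469 CPM (17.0-fold, 14.7 to 19.8), and at 58.5 and 109 CPM in the others. The growth factor gene Ptn was 24.4-fold higher, C1qtnf3 52.4-fold, the microfibril gene Mfap4 32.0-fold and the tenascin Tnc 46.1-fold (9 control UMIs, 23.6 to 103). Fbn2, fetal fibrillin-2, had no UMI in control progenitors and 55.3 CPM at 1 week, at least 111-fold higher by the lower counting limit and 138-fold against a floor of 3 UMIs in the summed cells. Few control UMIs stood behind Col11a1 (2 UMIs, 308-fold, 84.3 to 2563), Tnn (3 UMIs, 183-fold, 61.8 to 898) and Fmod (3 UMIs, 132-fold, 44.3 to 650). The summed chondrocyte markers in progenitors were 2.26 CPM in the control and 58.1 CPM at 1 week over 8 genes, against 4.58 and 519 CPM in the other fibroblasts, and their part in these values was not tested. Spp1, the secreted phosphoprotein osteopontin, stood at 1.47 and 181 CPM, but 1 cell held 56.8% of its 1-week UMIs and immune cells held 1679 CPM.

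The list of contractile and myofibroblast genes had 14 eligible members, of which 8 were at least 2-fold higher and 0 lower, where 5.87% of all eligible genes were higher. The median log2 ratio of the list was 1.33 against -0.05 over all genes, and it was 1.99 in the other fibroblasts. Postn, a matricellular protein, stood at 223 and 2433 CPM and was 10.9-fold higher. Collagen and collagen-processing genes were higher in 12 of 26 and lower in 1, with a median of 0.92, and in the other fibroblasts that median was 1.04. The collagen Col12a1 was 19.1-fold and Col1a1 3.89-fold higher, while Pcolce2, which enhances procollagen processing, was 5.48-fold lower. Of 15 matrix-degrading enzymes and inhibitors 7 were higher and 1 lower: Timp1, an inhibitor, stood at 43.0 and 466 CPM, Mmp2, a gelatinase, at 404 and 1419 CPM, and Adam12 was 24.2-fold higher. Of 6 eligible interferon-response genes 3 were at least 2-fold higher and 1 lower, and the median log2 ratio was 1.51 beside 1.14 in the other fibroblasts. Isg15 was 5.43-fold, Irf7 6.77-fold and Bst2 4.23-fold higher.

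The genes that were lower at 1 week included those for a granule protein, a chemokine, a complement component and an actin-binding protein. Scg3, a secretory granule protein, stood at 253 CPM in the control and 2.40 CPM at 1 week (6 UMIs), 105-fold lower (48.3 to 287). In the other fibroblasts Scg3 was 383-fold lower. Cxcl13, a B cell chemokine, stood at 112 and 1.2 CPM (3 UMIs, 93.1-fold lower, 31.7 to 452). C7, a terminal complement component, stood at 237 and 18.4 CPM (12.9-fold lower, 9.61 to 17.6). Bmp2, a bone morphogenetic protein, was 15-fold lower, and Enpp2, which makes lysophosphatidic acid, 9.08-fold lower. Gsn, an actin-severing protein, stood at 22359 and 3566 CPM (6.27-fold lower, 6.14 to 6.41), and at 26001 and 782 CPM in the other fibroblasts. Slurp1, Pou2f2, Uchl1, Ppl, Stmn4 and Car8 were 8.87-fold to 47.7-fold lower. The largest of these, Pou2f2, rested on 3 UMIs at 1 week (16.2 to 232), and Slurp1 on 11 UMIs. Of 30 eligible universal progenitor genes 0 were at least 2-fold higher and 11 lower, where 5.87% and 5.56% of all eligible genes were. Their median log2 ratio was -0.66 in the progenitors and -1.70 in the other fibroblasts. In each library the rule took cells with at least 4 UMIs of Pi16 and Dpp4 as progenitors and left those with fewer among the others. Acan and Col11a1 cells were 0.552% of the others in the control and 51.5% at 1 week. The part of the rule and of this make-up in the difference between the populations was not tested. Of the 3 markers, Scara5 was closest to its control level, 1.19-fold lower in progenitors beside 9.08-fold lower in the others, and Cd34 was 1.51-fold lower beside 5.51-fold. Efhd1 was 3.04-fold lower (2.57 to 3.62), Procr, the protein C receptor, 4.61-fold lower and Sema3e 4.75-fold lower. In the control, Sema3e was highest in Dpp4-only cells. Such cells were 27.3% of control progenitors and 3.57% of 1-week ones, and their part in the Sema3e ratio was not tested.

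At 2 months, 114 of 3191 genes were at least 2-fold higher than in the control (3.57%) and 46 at least 2-fold lower (1.44%). Cxcl14, a chemokine of barrier and stromal cells, stood at 75.9 CPM in control progenitors and 688 CPM at 2 months, 9.06-fold higher (8.32 to 9.88), whereas in the other fibroblasts it was 742 and 779 CPM. Complement genes were higher in 4 of 10 and lower in 1, with a median log2 ratio of 0.85 against -0.04 over all genes. C3 stood at 1236 and 2521 CPM (2.04-fold, 1.99 to 2.09), and C1s1, a protease of the classical pathway, at 205 and 580 CPM. The 1 lower was C1qa, a macrophage gene, at 3.95-fold. In that library summed macrophage markers in progenitors were 135 CPM against 289 CPM in the control. C3 and Cxcl14 were lower in Dpp4-only than in Pi16-only progenitors. Dpp4-only cells were 27.3% of control progenitors and 5.01% of 2-month ones, and their part in the C3 and Cxcl14 ratios was not tested. Of 9 contractile and myofibroblast genes 4 were at least 2-fold higher and 0 at least 2-fold lower, with 2 at a ratio below 1, and Cthrc1 of this list stood at 164 CPM (19.6-fold, 15.2 to 25.6). Of 24 collagen and collagen-processing genes 4 were higher and 0 lower, with Lox at 136 CPM (8.63-fold). Sfrp2 stood at 294 CPM (11.5-fold) and Thbs4, a matrix thrombospondin, at 92.0 CPM (10.0-fold). Mmp3, stromelysin, stood at 46.1 and 358 CPM (7.77-fold). Of 13 perivascular and sublining genes 8 were higher and 2 lower, with Steap4 4.69-fold and Vcam1 3.65-fold higher, and Myoc 2.02-fold and Penk 2.46-fold lower. Tgfbr2, a TGF-beta receptor, stood at 182 and 455 CPM and Runx1, a transcription factor, was 3.74-fold higher.

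Other named genes that were higher at 2 months encode acute-phase proteins or are abundant in blood cells. Hp (haptoglobin) stood at 7.99 and 313 CPM, 39.2-fold higher, Saa3, a serum amyloid, at 1.47 and 50.4 CPM, and Plac8 at 3.73 and 69.2 CPM. Beside them, summed neutrophil markers in progenitors stood at 73.3 CPM for the control, 76.1 CPM for 1 week and 366 CPM for 2 months (3 of 9 at 0 at 1 week, namely Csf3r, Cxcr2 and Mmp8), and in immune cells Hp stood at 88.8 CPM in the control and 526 CPM at 2 months. Their part in these values was not tested. A top cell held 40.0% of the Saa3 UMIs at 2 months and 23.6% of the Spp1 UMIs (100 CPM, 68.4-fold). Emb and Cyp2f2, a cytochrome P450, were 14.3-fold and 13.9-fold higher, at 175 and 101 CPM. In the down direction, Scg3 stood at 27.7 CPM against 253 CPM (9.14-fold lower, 8.08 to 10.4) and Fabp4, a fatty acid binding protein, at 9.39 against 73.3 CPM (7.80-fold lower). Endothelial cells held 4976 CPM of Fabp4 at 2 months against 11312 CPM in the control, and their part in the progenitor values was not tested. Cxcl2, a neutrophil-attracting chemokine, was 5.02-fold lower, at 52.4 against 263 CPM, beside 1901 against 6051 CPM in immune cells. Pou2f2, Colec10, Alkal2, Stmn4, Bmp2, Slurp1, Cdh13, F13a1 and Uchl1 were 3.14-fold to 10.3-fold lower. For F13a1, 1 cell held 33.3% of the 2-month UMIs, and its ratio in the other fibroblasts was 1.01. Immune cells held 684 CPM of F13a1 at 2 months against 1270 CPM in the control, and their part was not tested. Of 7 eligible clock genes 3 were at least 2-fold higher and 0 lower, where 3.57% and 1.44% of all eligible genes were. Their median log2 ratio was 0.31, beside 0.21 in the other fibroblasts. Dbp stood at 12.8 and 63.0 CPM (4.92-fold) and at 5.43 and 76.2 CPM in the others. The labels do not state the hour of harvest.

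**Figure D5:**
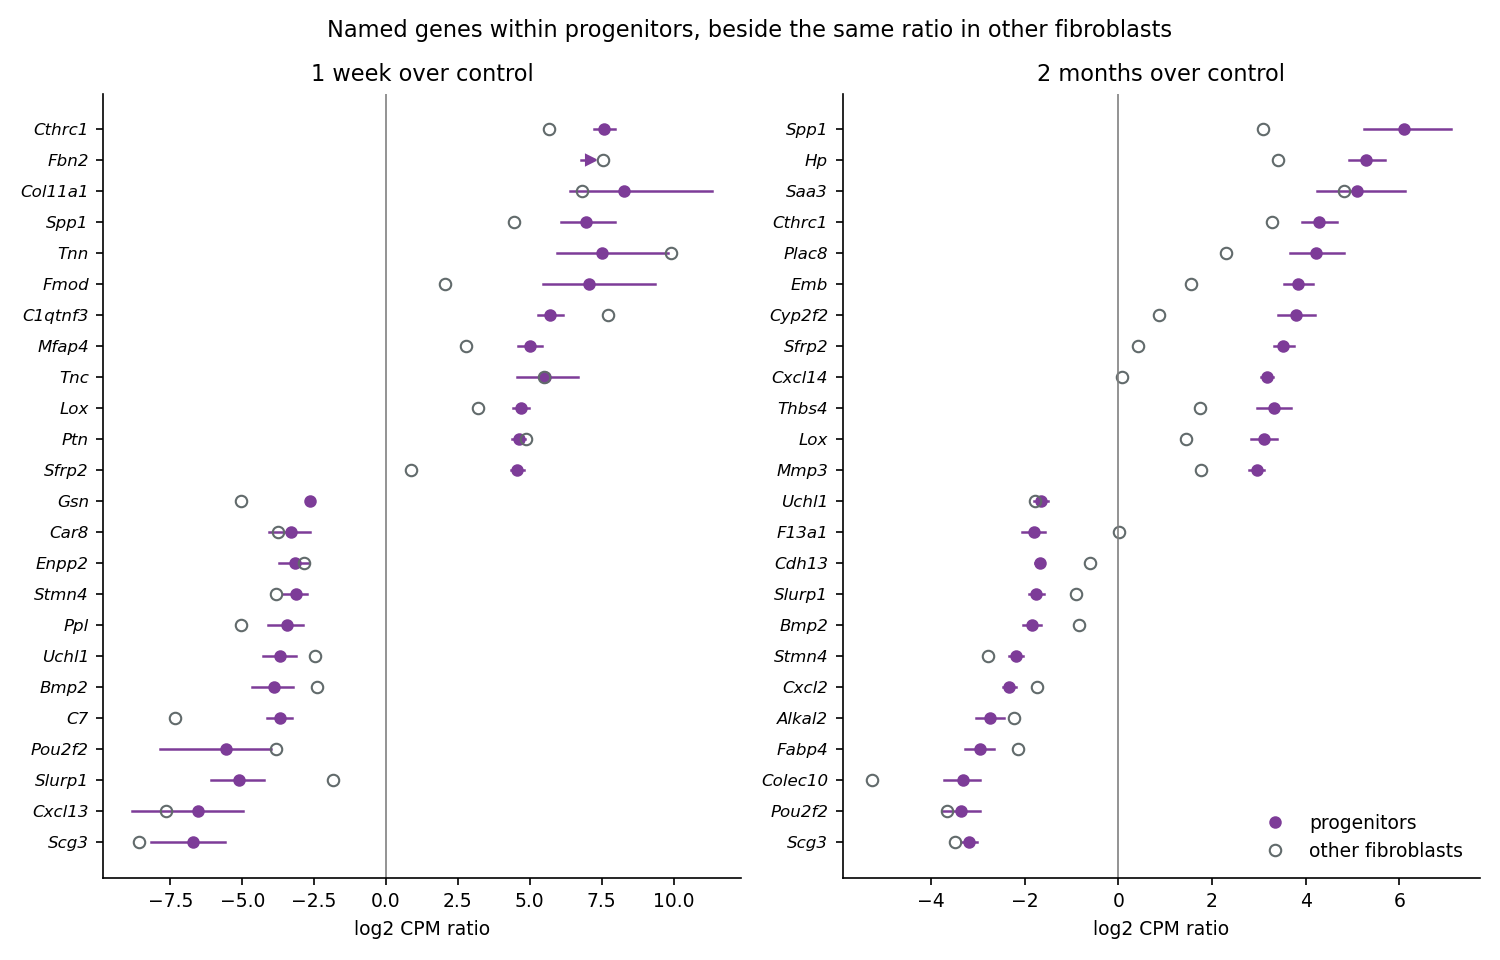
Log2 CPM ratio (horizontal axis) of genes named by rule within progenitors (filled points with lines for counting intervals; a triangle marks a ratio against the floor of 3 UMIs) at 1 week (left) and 2 months (right) over the control, beside the same ratio in other gated fibroblasts (open circles). Cthrc1 and Lox lie to the right and Scg3 to the left in both panels, and Cxcl14 lies near 0 in the other fibroblasts at 2 months.

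From 1 week to 2 months, 101 of 3184 genes were at least 2-fold higher (3.17%) and 76 at least 2-fold lower (2.39%). Named genes that were high at 1 week were among those lower later. Cthrc1 was 9.79-fold lower (9.25 to 10.4), Fbn2 74.3-fold (8 UMIs at 2 months, 36.7 to 176), Ptn 10.1-fold, C1qtnf3 9.53-fold and Tnn 8.86-fold. Col11a1 was 13-fold lower, although 1 cell held 54.4% of its 2-month UMIs. Mest and H19, imprinted genes active in fetal tissue, were 13.5-fold and 8.63-fold lower. Of 26 collagen genes 9 were lower and 1 higher, and of 14 contractile genes 6 lower and 0 higher. Of 22 elastic fibre and adventitial matrix genes 4 were lower and 2 higher, with a median log2 ratio of -0.07 against 0.04 over all genes. Cxcl13 stood at 1.2 and 79.2 CPM, 65.9-fold higher (22.5 to 320), C7 at 18.4 and 150 CPM, and C3 at 675 and 2521 CPM (3.74-fold). Ccl11, the eosinophil chemokine eotaxin, was 4.85-fold higher and Dbp 7.49-fold. Of 27 universal progenitor genes 7 were higher and 0 lower, among them Efhd1 (2.68-fold) and Smpd3 (3.03-fold). Lars2, a mitochondrial tRNA synthetase, was 4.51-fold higher in progenitors, and stood at 123 and 564 CPM in immune cells.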

How the data were processed

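The measurements were UMI counts per gene and cell barcode in 3 libraries. The authors deposited raw counts without normalisation, written by Cell Ranger 5.0.0 (2 libraries) and 5.0.1 (1 library) per the file headers, whereas the submitters' processing notes name Cell Ranger 6.0.1 and build mm10. Counts of the selected cells were summed per library and given as CPM of that sum, with exact Poisson, Clopper-Pearson and conditional binomial 95% intervals. The members and the 25 gene lists were chosen with earlier results of these data known. Progenitors were tested against other or lining-gated fibroblasts with edgeR 4.0.16 in R 4.3.3 (quasi-likelihood, TMM, filterByExpr, library as a block, Benjamini-Hochberg, called at an adjusted p below 0.05), and the 13 gate genes were left out.

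The test was first tested on simulated data. Named genes were the 15 highest and 10 lowest called genes against the other fibroblasts, the 8 and 8 against the lining, and within progenitors the 12 and 12 of each comparison with the control and the 8 and 8 between the operated libraries, ranked by the interval bound nearest 1. Genes also had to reach 50 CPM in 1 sum, and called genes had to lie in the same direction in 3 of 3 libraries. The 3 members with the largest ratios of each list described were added. Other members of lists, and the genes that separate cells by Pi16 and Dpp4, were named after their values were seen. The naming by rule left out gate, mitochondrial, ribosomal, haemoglobin, Y-linked and predicted genes, Xist and other classes' markers. Some of these markers, such as C1qa, Cfd and Prg4, were named outside the rule. Scrublet in scanpy 1.11.5 called doublets, which were kept, and their removal was an alternative, as were other thresholds, thinning, depth matching, filters, DESeq2 1.42.0, no library block and leaving out each library.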

Additional observations from a re-analysis of the deposited data

How the results depend on the processing

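The 1-week share was below the control under all definitions: the ratio was 0.173 to 0.224 except with Pi16 alone (0.289) and Dpp4 alone (0.111). The 2-month share was not settled against the control: 0.934 became 1.02 with a threshold of 6 UMIs or with at least 2 UMIs of Pi16 and 1 of Dpp4, 1.27 with Pi16 alone, 1.06 of all cells (chosen after seeing the data) and 0.565 with Dpp4 alone. The ratio of 2 months over 1 week was 4.62 (3.91 to 5.5), 4.19 to 5.11 under the planned definitions, and 5.69 of all cells (also chosen after seeing the data). With a filter of 50 UMIs and no CPM minimum, 525 genes were higher and 554 lower within progenitors at 1 week, 582 and 214 at 2 months, and 537 and 297 between the operated libraries. Against the other fibroblasts, leaving out a library in turn gave 65 to 608 genes higher and 53 to 637 lower, the lowest without the 2-month library; without the library block edgeR called 0 in either direction (553 and 539 at an unadjusted p under 0.05), and without a filter on low counts 870 were lower. DESeq2 called 643 and 591. Against the lining, leaving out a library gave 730 to 1741 higher and 542 to 1674 lower. Without the 2-month library Efhd1, Efemp1, Pcsk6, Smpd3, Tmeff2, Crispld1, Fmod, Spp1 and Tnn missed the threshold, and Mmp13 missed it when depth was matched. In progenitors with UMIs of both genes (chosen after seeing the data), 63 of 64 named ratios were at least 2-fold in the same direction, all but Cdh13 at 2 months, and 64 of 64 were under the other settings. Sizes moved more: 81 values of named ratios moved beyond their counting interval and 303 did not, the furthest per setting being Col11a1 by 2.86 on the log2 scale in cells with both genes (2 months over 1 week) and, at 1 week over the control, Pou2f2 by 1.39 (at least 0.03% of UMIs), Spp1 by 1.22 (doublets removed) and Fmod by 1.05 (6 UMIs). No paired analysis was possible because each condition has 1 library, as far as conditions are compared; the library block pairs the fibroblast populations. The number of cells limits the 1-week values most, with 168 progenitors and 2496037 UMIs in all.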
